A study of Homo sapiens with 12 samples.

Results

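The genes described are those of the aminoacyl-tRNA synthetases and of the proteins that hold some of them together. Members were chosen by symbol: a letter for the amino acid followed by ARS and 1, 2 or 3, with EPRS1, FARSA, FARSB, AIMP1, AIMP2 and EEF1E1 added. This gave 41 of the 60641 symbols in the table, namely 21 cytosolic enzymes, 17 mitochondrial enzymes (those with the suffix 2) and 3 scaffold proteins. All 41 passed the filter on low counts, although VARS2 held between 2 and 23 reads in a library and SARS2 between 12 and 58. RNA was sequenced from SRA01/04, an immortalised human lens epithelial cell line, after 24 hours of treatment. The 4 groups of 3 libraries were untreated cells (NC), cells with added asparagine (NC-A), cells exposed to 1,2-DHN, a metabolite of naphthalene (DHN), and cells exposed to 1,2-DHN with asparagine added (DHN-A). All groups are the same cell line, while doses, culture medium and order of addition are not stated in the labels. The series asks whether asparagine alters what the naphthalene metabolite does to lens cells.

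An aminoacyl-tRNA synthetase joins 1 amino acid to the tRNAs that carry it to the ribosome. Most amino acids have a cytosolic enzyme and a separate mitochondrial enzyme, both encoded in the nucleus, and the mitochondrial ones serve translation of the few proteins encoded by mitochondrial DNA. Several cytosolic enzymes sit in a multi-synthetase complex on the scaffolds AIMP1, AIMP2 and EEF1E1. When uncharged tRNAs accumulate, the kinase GCN2 (EIF2AK4) phosphorylates the initiation factor eIF2, translation of the transcription factor ATF4 rises, and ATF4 raises many genes of amino acid supply, cytosolic synthetases among them. The same arm is entered from other stresses through other kinases and is called the integrated stress response.

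Total counts were 12381071 to 27526206 per library, and edgeR's common estimate of the variation between replicates, over and above counting noise, was 4.60%. Nothing in the labels says that replicates were separate cultures, so the p-values speak of the variation among these libraries alone, possibly a technical one. NC-A 1 stood apart on the first principal component over all tested genes, at 65.1 against 12.5 and 10.4 for NC-A 2 and 3. Counts of calls, class medians, the comparison of enzyme pairs and the 3 largest changes in NC-A against NC are also given without it. Of 18 lens markers 7 had enough counts for a test, led by the transcription factors PAX6 (25.2 CPM in NC) and SIX3 (14.3 CPM). The fibre cell genes MIP, LIM2 and CRYBB1 had no read in NC. Enough counts were also present for 6 of 8 fibroblast markers, 3 of 8 immune, 1 of 8 keratinocyte and 5 of 8 pigment cell markers. The summed immune markers were at 1.92 to 5.34 CPM over all libraries. The summed fibroblast markers were at 1280 to 1370 CPM in NC, 1120 in NC-A, 740 to 787 in DHN and 1100 to 1160 in DHN-A, and their part in the results was not tested. In RNA from a whole culture, fewer cells with a transcript and less of it per cell cannot be told apart.

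In untreated cells the cytosolic enzymes were the more abundant class. Levels between genes were compared as CPM (reads of a gene scaled to a common library size) per kilobase of the deposited gene length. The median was 31.2 CPM per kilobase over the 21 cytosolic genes in NC and 4.72 over the 17 mitochondrial genes. The highest cytosolic level was that of SARS1, the seryl enzyme, at 68.5 ± 1.22 CPM per kilobase (mean ± SD, n = 3, as for the levels after it), followed by the threonyl enzyme TARS1 at 56.5 ± 1.56. The glycyl enzyme GARS1 (41.3 ± 0.852), the asparaginyl enzyme NARS1 (40.7 ± 1.85), the lysyl enzyme KARS1 (40.6 ± 0.31) and FARSA (40.3 ± 0.601), the alpha chain of the phenylalanyl enzyme, did not differ beyond their spread. FARSB, the beta chain of that same enzyme, was at 6.97 ± 0.554, and TARS3, a second cytosolic threonyl enzyme, was lowest at 3.40 ± 0.303. The deposited length of FARSB is 6761 bases, against 3369 exon bases in GENCODE release 29. For FARSA the lengths are 2434 and 2435 bases. Without division by length FARSA was at 98.1 ± 1.46 CPM and FARSB at 47.1 ± 3.75 CPM in NC, so the size of their gap depends on the length used. Among mitochondrial enzymes IARS2 (isoleucine) stood first at 29.3 ± 0.643, above RARS2 (arginine) at 13.9 ± 0.87 and HARS2 (histidine) at 13.0 ± 0.49. NARS2, the mitochondrial asparaginyl enzyme, was at 3.51 ± 0.106. SARS2 (0.416 ± 0.107) and VARS2 (0.0402 ± 0.0113) were lowest. According to GENCODE release 29, a same-strand neighbour covers 46.2% of the exon bases of SARS2 and 22% of those of VARS2, so both levels are uncertain.

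Asparagine on its own raised most cytosolic synthetases, while none of the 17 mitochondrial genes with the suffix 2 passed the threshold. In NC-A against NC, 12 of 21 cytosolic enzymes rose and 1 fell (edgeR's quasi-likelihood test, Benjamini-Hochberg adjusted p below 0.05 over 17889 genes). Over all tested genes 9.32% were called higher and 10.9% lower. The median log2 change was 0.32 over the cytosolic enzymes, 0.10 over the mitochondrial enzymes and 0.0031 over all tested genes. Without NC-A 1 the counts of rises and falls were the same, and these medians were 0.31, 0.064 and 0.0055, so the mitochondrial one was lower by more than 1.5 times. Of the 17 mitochondrial enzymes 0 rose and 0 fell by edgeR, with 3 at an unadjusted p below 0.05. At the shares of 9.32% and 10.9% few calls would arise among 17 genes in any case. DESeq2 and limma-voom also called 0.

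The largest rise was that of GARS1, which charges glycine in the cytosol and, from the same gene, in mitochondria (chromosome 7 from 30594735 to 30634033, GRCh38). By its symbol GARS1 was counted as cytosolic. It was at 163, 169 and 163 CPM in NC 1, 2 and 3 and at 303, 300.4 and 308 CPM in NC-A 1, 2 and 3. The groups did not overlap, and the log2 change was 0.88 ± 0.039 (± SE, as for all log2 changes), or 1.84-fold (edgeR adjusted p = 2.79e-22). YARS1, the tyrosyl enzyme (chromosome 1 from 32775239 to 32817358), was at 142, 147 and 150.4 CPM in NC and 244, 228 and 232 CPM in NC-A, a log2 change of 0.68 ± 0.040. CARS1, the cysteinyl enzyme (chromosome 11 from 3000929 to 3057423), was at 108, 104 and 109 CPM in NC and 162, 173 and 176 CPM in NC-A, a log2 change of 0.67 ± 0.046. Every NC-A library was above every NC library for these 3 genes, whose changes without NC-A 1 were 0.88, 0.65 and 0.71. The methionyl enzyme MARS1 rose by 0.62 ± 0.038, the alanyl enzyme AARS1 by 0.61 ± 0.038, SARS1 by 0.49 ± 0.037, the isoleucyl enzyme IARS1 by 0.46 ± 0.041 and the glutamyl-prolyl enzyme EPRS1 by 0.36 ± 0.040. LARS1 (leucine), WARS1 (tryptophan) and TARS1 rose by 0.34, 0.32 and 0.32.

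NARS1 is the enzyme that joins asparagine, the amino acid added, to its cytosolic tRNA (chromosome 18 from 57600656 to 57621836). It was at 175, 164 and 160.4 CPM in NC and 229.8, 232 and 239 CPM in NC-A, and rose by 0.49 ± 0.041 (edgeR adjusted p = 5.6e-13). Of the other 11 rises, 5 were larger and 6 smaller. Its mitochondrial counterpart NARS2 (chromosome 11 from 78435968 to 78574864) was at 11.2, 11.2 and 10.6 CPM in NC and 14.3, 10.3 and 13.5 CPM in NC-A. NC-A 1 and NC-A 3 lay above all NC libraries and NC-A 2 lay below them, and the change of 0.21 ± 0.11 was not called (edgeR adjusted p = 0.197, or 0.0453 without NC-A 2).

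The 1 cytosolic enzyme that fell was QARS1, which charges glutamine, the amide donor of asparagine synthesis (chromosome 3 from 49095932 to 49104757). It was at 177, 166 and 173 CPM in NC and 149.9, 144 and 149 CPM in NC-A, without overlap, a log2 change of -0.22 ± 0.042 (edgeR adjusted p = 9.18e-05). The 8 cytosolic genes that were not called, FARSA, FARSB, KARS1, VARS1 (valine), RARS1, TARS3 and HARS1 among them, had log2 changes from -0.12 to 0.059.

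**Figure D1:**
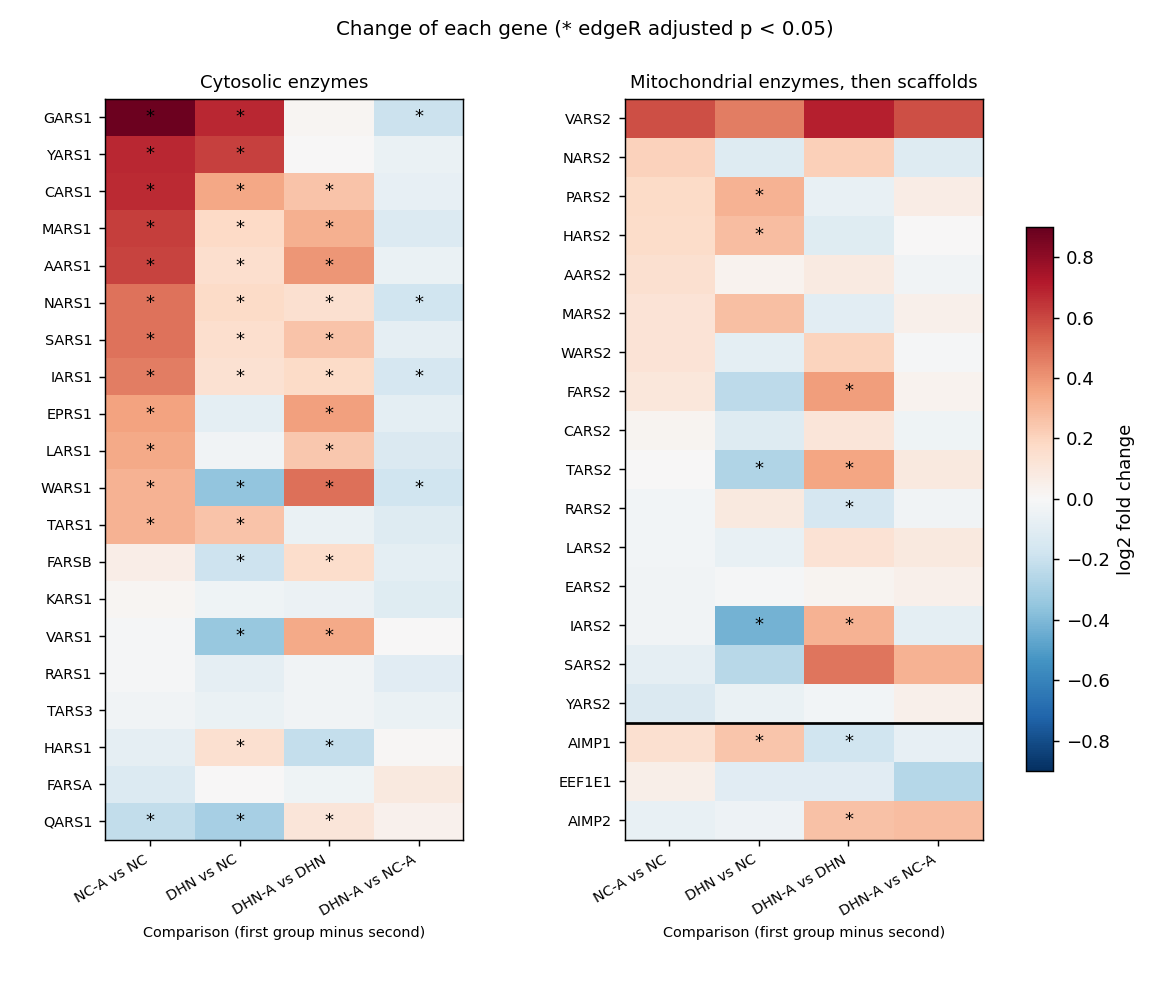
Log2 fold change (colour, from -0.9 to 0.9) of the genes described (rows) in 4 comparisons (columns); the stars mark edgeR adjusted p below 0.05. In the column NC-A vs NC the stars stand on 13 cytosolic enzymes and on no mitochondrial enzyme or scaffold.

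The mitochondrial enzymes were measured with larger errors. In NC-A against NC the median SE of the log2 change was 0.041 for cytosolic and 0.0726 for mitochondrial enzymes, and the largest was 0.61 for VARS2. For 11 of the 17 mitochondrial enzymes the approximate 95% interval of the change ended below 0.32, the cytosolic median. HARS2 had the change nearest the threshold, at 0.17 ± 0.063 (edgeR adjusted p = 0.0576). It was called with only NC and NC-A in the fit (0.0376) and without DHN 3 (0.0345). The difference between the 2 classes as wholes was not tested.

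For 15 amino acids both a cytosolic and a mitochondrial enzyme are among the members (EPRS1 was set against EARS2), and in NC-A against NC the cytosolic change was the higher one in 12. The median difference of the log2 changes was 0.37, and without NC-A 1 the cytosolic change was again higher in 12 pairs, with a median difference of 0.38. The cytosolic change was higher in 8 of 15 pairs in DHN against NC, with a median difference of 0.037, and in 8 of 15 in DHN-A against DHN, with a median of 0.032. In DHN-A against NC-A it was higher in 1 of 15, with a median difference of -0.13. The NC-A libraries enter this comparison and NC-A against NC with opposite signs, so the pair counts of both are not independent. In every comparison the pairs of valine and serine rest on the few reads of VARS2 and SARS2. In NC-A against NC the widest gaps among well-counted pairs were those of tyrosine, with YARS1 at 0.68 and YARS2 at -0.13, and cysteine, with CARS1 at 0.67 and CARS2 at 0.028. The 3 exceptions in NC-A against NC included histidine and valine, and the value for valine rests on the few reads of VARS2.

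**Figure D2:**
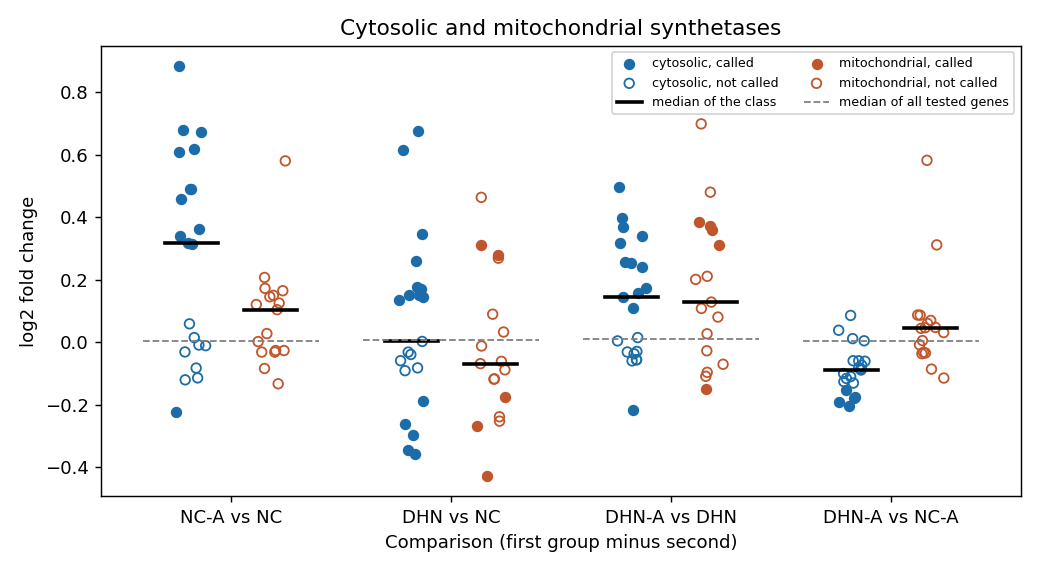
Log2 fold change of each cytosolic (blue) and mitochondrial (orange) enzyme in 4 comparisons, with filled points for calls, a black bar for the median of the class and a dashed line for the median of all tested genes. The cytosolic median stands at 0.32 in NC-A vs NC and the mitochondrial median at 0.10; the highest open orange points are VARS2.

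Summed over the class, the cytosolic enzymes took 3436, 3448 and 3372 CPM in NC 1, 2 and 3 and 4338, 4313 and 4341 CPM in NC-A. The sums were 3674, 3662 and 3599.6 CPM in DHN and 4057, 4003 and 4100.4 CPM in DHN-A. The order was therefore NC, DHN, DHN-A and NC-A, and no 2 groups overlapped. The mitochondrial sums were 547 to 554 CPM in NC, 559 to 579 in NC-A, 503 to 526 in DHN and 559 to 568 in DHN-A. DHN was the lowest group and NC the next, each without overlap with any other, while NC-A and DHN-A overlapped. Such sums weigh long and abundant genes most.

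**Figure D3:**
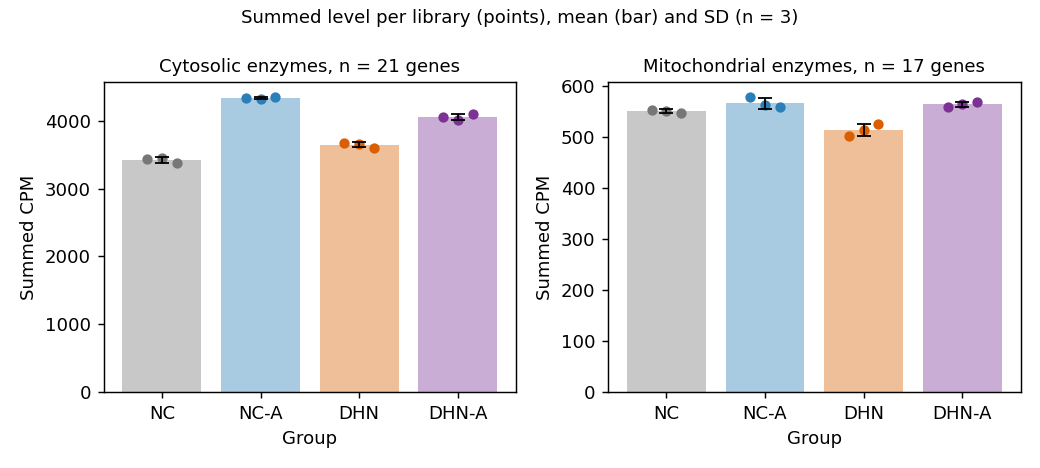
Summed CPM of the 21 cytosolic (left) and 17 mitochondrial (right) enzymes by group, with a point per library, the mean as a bar and the SD as an error bar (n = 3). The cytosolic bar of NC-A reaches 4331 CPM against 3419 in NC; the mitochondrial bars lie between 514 and 567 CPM.

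Promoter sequences were read to show which of these genes carry the letters of an amino acid response element at their start. The search was for TGATGNAA, the core to which ATF4 dimers are known to bind, and its reverse complement TTNCATCA, in the 250 bases before and 50 bases after the start site in RefSeq (GRCh38.p14). Of the 41 members 33 had an entry, and 8 did not, AARS2, LARS1, TARS3, VARS1, VARS2 and YARS1 among them. The motif was in 6 of 16 cytosolic windows (37.5%), 1 of 14 mitochondrial windows (7.14%) and 0 of 3 scaffold windows, against 3.62% of 35116 windows of all genes. The stretches with a match are shown 5′ to 3′ on the strand of the gene, with the motif in capitals.
AARS1 (chr16:70289656-70289723, minus strand): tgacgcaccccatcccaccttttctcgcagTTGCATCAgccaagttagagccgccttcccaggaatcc
CARS1 (chr11:3057413-3057430, minus strand): ggcggTTGCATCAgattc
IARS1 (chr9:92293698-92293740, minus strand): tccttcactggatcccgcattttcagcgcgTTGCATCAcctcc
MARS1 (chr12:57488059-57488076, plus strand): tccggTTGCATCAgcgag
NARS1 (chr18:57621810-57621827, minus strand): ctctcTGATGCAAcgccg
TARS1 (chr5:33440962-33440979, plus strand): ttcgaTTGCATCAgctgg
YARS2 (chr12:32756057-32756124, minus strand): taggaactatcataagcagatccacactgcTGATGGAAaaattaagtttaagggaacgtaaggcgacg
The 6 cytosolic genes share the letters TTGCATCA, or TGATGCAA on the other strand, and YARS2 has TGATGGAA. In CARS1, IARS1, MARS1, NARS1 and TARS1 the motif lies within 14 bases of the start site. All 6 cytosolic genes with a match rose in NC-A against NC, as did 4 of the 10 cytosolic genes whose window held none (GARS1, SARS1, EPRS1 and WARS1). Over all tested genes 9.32% were called higher there. YARS1 and LARS1 also rose but had no entry, and whether the rises go with the motif was not tested. YARS2 was at -0.13 ± 0.082 and was not called (edgeR adjusted p = 0.274). A match is a description of these letters and not evidence of binding.

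1,2-DHN without asparagine moved the cytosolic enzymes both ways. In DHN against NC, which uses the same NC libraries as the comparison above, 10 of 21 cytosolic enzymes rose and 5 fell. Of the mitochondrial enzymes 2 of 17 rose and 3 fell. Over all tested genes 19.7% were called higher and 19% lower, so the cytosolic share that rose was above the background, while the shares that fell were close to it. The median log2 change was 0.0028 over cytosolic and -0.068 over mitochondrial enzymes, against 0.0073 over all tested genes.

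GARS1 was at 270.4, 270.5 and 251 CPM in DHN, above every NC library, and rose by 0.68 ± 0.039 (edgeR adjusted p = 2.59e-19). YARS1 was at 223, 224 and 227 CPM in DHN and rose by 0.62 ± 0.040. CARS1 was at 129, 145 and 133 CPM in DHN, between NC and NC-A without overlap with either, and rose by 0.35 ± 0.046. These 3 genes led the rises here and in NC-A against NC. TARS1 rose by 0.26 ± 0.038, whereas the other 6 rises were small. NARS1, at 195, 188 and 179 CPM, rose by 0.17 ± 0.041, and AARS1, at 189, 189.6 and 185 CPM, by 0.15 ± 0.038. MARS1, SARS1, IARS1 and HARS1 rose by 0.18, 0.15, 0.13 and 0.15. IARS1 was not called without NC 3 (edgeR adjusted p = 0.052).

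WARS1, the tryptophanyl enzyme, which is also induced by interferon, had the largest cytosolic fall (chromosome 14 from 100333790 to 100376327). It was at 91.5, 98.4 and 102 CPM in NC and 75.8, 78.9 and 73.5 CPM in DHN, without overlap, a log2 change of -0.36 ± 0.048. VARS1, the valyl enzyme (chromosome 6 from 31777518 to 31795752), was at 279.8, 263 and 276 CPM in NC and 215, 212 and 218 CPM in DHN (-0.34 ± 0.037). QARS1 was at 145, 135 and 142 CPM in DHN, below every NC library (-0.30 ± 0.042). FARSB was at -0.19 ± 0.063 and was not called without NC 2 or DHN 2 (edgeR adjusted p = 0.126 and 0.0704). EPRS1, at 265, 269.5 and 246 CPM in NC and 254, 248 and 232 CPM in DHN, had overlapping groups and was not called (-0.091 ± 0.040, edgeR adjusted p = 0.0699), although it was without NC 3 (0.014) or DHN 1 (0.0497). 

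Among the mitochondrial enzymes IARS2 had the largest called change. It was at 124, 121 and 118 CPM in NC and 87.4, 93.0 and 88.9 CPM in DHN, without overlap (chromosome 1 from 220094132 to 220148041), and fell by 0.43 on the log2 scale (edgeR adjusted p = 3.16e-11). TARS2, the mitochondrial threonyl enzyme, was at 41.2, 38.6 and 36.3 CPM in NC and 30.4, 32.5 and 32.9 CPM in DHN (-0.27 ± 0.066). HARS2 was at 47.9, 46.7 and 50.3 CPM in NC and 55.1, 55.0 and 65.2 CPM in DHN and rose by 0.28 ± 0.061. HARS1 and HARS2 start head to head on chromosome 5, and both rose. Their exons overlap on opposite strands, so reads of either could have been counted for the other, which was not tested. PARS2, the mitochondrial prolyl enzyme, was at 7.71, 8.26 and 7.73 CPM in NC and 9.11, 9.91 and 10.3 CPM in DHN (0.31 ± 0.11). The groups of PARS2 did not overlap, but its call was lost without NC 1, NC 3, DHN 2 or DHN 3 (0.0671 to 0.1), which leaves 1 mitochondrial rise. NARS2 was at 9.19, 10.3 and 10.7 CPM in DHN (-0.12 ± 0.11, edgeR adjusted p = 0.447).

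**Figure D4:**
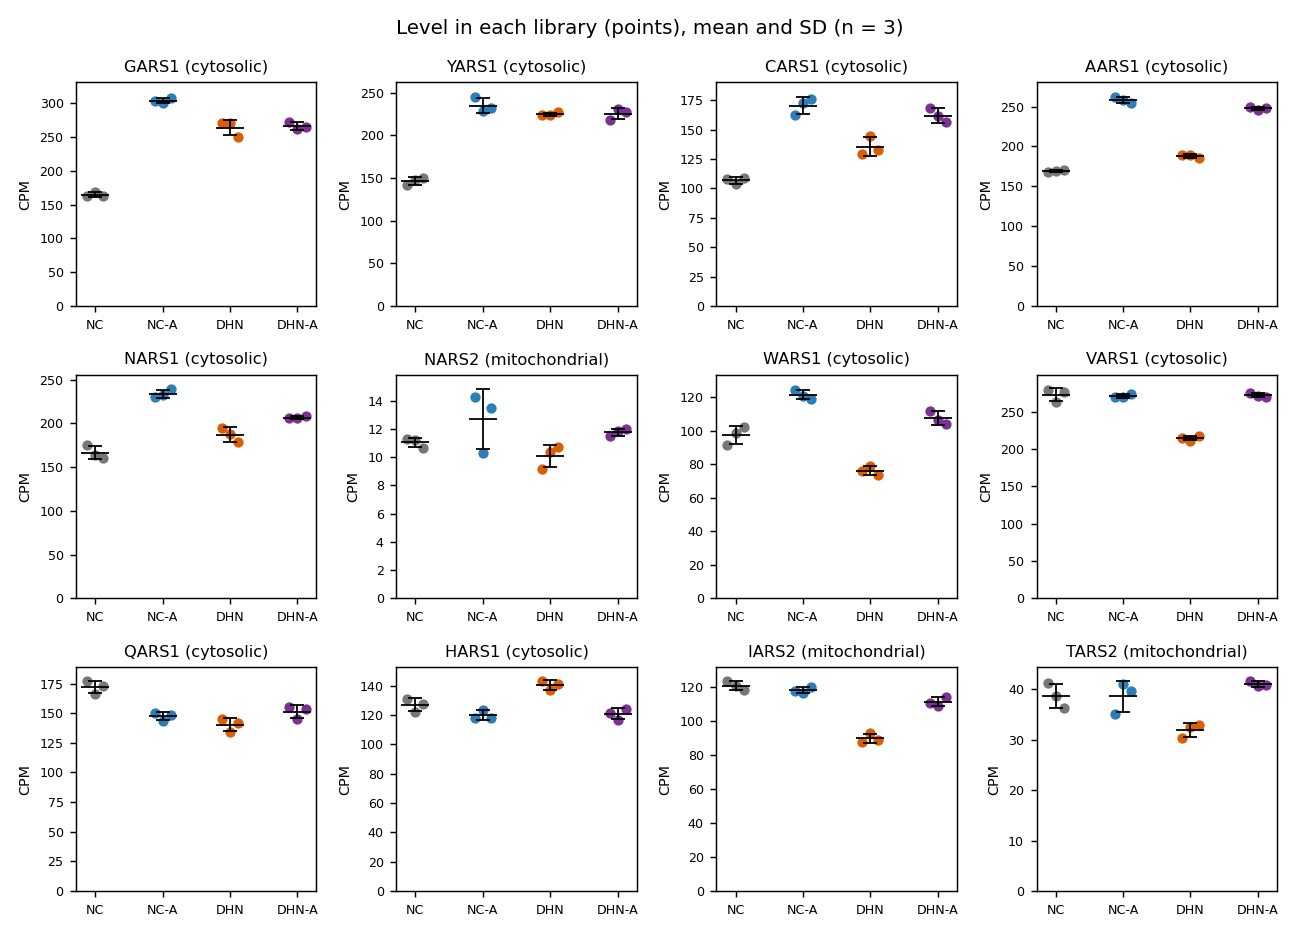
CPM of 12 synthetase genes in each library (points) by group, with the mean and SD (n = 3); every vertical axis starts at 0. GARS1 and YARS1 are lowest in NC, while WARS1, VARS1 and IARS2 are lowest in DHN.

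Adding asparagine to cells given 1,2-DHN raised 12 cytosolic synthetases, while the share of mitochondrial ones that rose was near that of all genes. In DHN-A against DHN, 12 of 21 cytosolic enzymes rose and 1 fell, and 4 of 17 mitochondrial enzymes rose and 1 fell. The DHN libraries also enter DHN against NC, with the opposite sign. A change there and its reversal here are therefore not independent, for these genes and for those named further below. Over all tested genes 20.9% were called higher and 20.8% lower. The median log2 change was 0.15 over cytosolic and 0.13 over mitochondrial enzymes, against 0.0091 over all tested genes. This comparison shares no library with NC-A against NC, and of the 12 cytosolic enzymes that rose there and the 12 that rose here, 9 are the same. With 12 of 21 enzymes in each set some overlap arises in any case, and its size was not tested. GARS1 and YARS1, the largest rises there, are not among the 9.

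The largest cytosolic rise was that of WARS1, from the DHN values above to 112, 106 and 104 CPM in DHN-A, higher than every DHN and every NC library (0.50 ± 0.047). AARS1 was at 249.6, 246 and 248 CPM in DHN-A and rose by 0.40 ± 0.037. EPRS1 was at 318, 309.5 and 318 CPM in DHN-A and rose by 0.37 ± 0.040. VARS1 was at 275, 272 and 269.5 CPM in DHN-A, within the range of NC, and rose by 0.34 ± 0.037. MARS1 rose by 0.32 ± 0.037, SARS1 by 0.26 ± 0.036, CARS1, at 168, 162 and 156 CPM, by 0.25 ± 0.044, LARS1 by 0.24 ± 0.039 and IARS1 by 0.17 ± 0.040. NARS1 was at 206, 206 and 208 CPM in DHN-A, above every DHN library (0.14 ± 0.040, edgeR adjusted p = 0.00308, or 0.0524 without DHN 3).

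Calls near the threshold were those of FARSB and QARS1. FARSB (0.16 ± 0.062) was not called without DHN 1, DHN 2, DHN 3 or DHN-A 3 (edgeR adjusted p = 0.0595 to 0.28). QARS1, at 155, 146 and 154 CPM in DHN-A (0.11 ± 0.042), was not called without DHN 2, DHN 3, DHN-A 1 or DHN-A 3 (0.0518 to 0.232).

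GARS1 and YARS1, the leading genes of both earlier comparisons, were not called here, and their groups overlapped. GARS1 was at 272, 261 and 266 CPM in DHN-A, a log2 change of 0.015 ± 0.038 with an approximate 95% interval of -0.059 to 0.090, and its sign turned without DHN 3 (-0.027). YARS1 was at 218, 231 and 228 CPM in DHN-A, a log2 change of 0.0045 ± 0.039 with an interval of -0.072 to 0.081, and its sign turned under RLE scaling, under DESeq2 and without DHN 1, DHN 2, DHN-A 2 or DHN-A 3 (-0.016 to -0.0012). HARS1, the histidyl enzyme (chromosome 5 from 140673905 to 140691370), was the 1 cytosolic fall. It was at 131, 122 and 128 CPM in the NC libraries, 118, 124 and 118 in those of NC-A, 143, 137 and 141 under DHN and 121, 117 and 124 under DHN-A. The DHN libraries were above all others, and the log2 change was -0.22 ± 0.042. Without DHN-A 3 a second enzyme, TARS1, was also called lower (-0.10, edgeR adjusted p = 0.037).

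Of the mitochondrial rises, IARS2 was at 111, 109 and 114 CPM in DHN-A (0.31 ± 0.043) and TARS2 at 41.7, 40.7 and 40.8 CPM (0.36 ± 0.065), both above every DHN library. FARS2, the single-chain mitochondrial phenylalanyl enzyme, was at 10.4, 10.4 and 12.5 CPM in DHN and 14.4, 14.7 and 14.4 CPM in DHN-A (0.37 ± 0.10). In IARS2, TARS2 and FARS2 the DHN libraries lay below the DHN-A libraries. RARS2 was at 45.4, 44.1 and 42.5 CPM in DHN and 40.3, 38.2 and 40.2 CPM in DHN-A (-0.15 ± 0.060, edgeR adjusted p = 0.0416). Its call was lost without NC-A 2, DHN 1, DHN 2, DHN-A 1 or DHN-A 2 (0.051 to 0.138), which leaves 0 mitochondrial falls. NARS2 was at 11.47, 11.81 and 11.99 CPM in DHN-A, and its change of 0.21 ± 0.11 was not called (edgeR adjusted p = 0.115).

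With asparagine present, few synthetases were called in response to 1,2-DHN, and the cytosolic calls were falls. In DHN-A against NC-A 0 of 21 cytosolic enzymes rose and 5 fell, while 0 of 17 mitochondrial enzymes were called. Over all tested genes 0.805% were called higher and 1.29% lower. The absence of rises was thus close to the background, while the cytosolic share that fell was above it. The median log2 change was -0.089 over cytosolic and 0.045 over mitochondrial enzymes, against 0.0030 over all tested genes. For rises the cytosolic and mitochondrial enzymes had 0 at an unadjusted p below 0.05 by edgeR, and DESeq2 and limma-voom called 0. The NC-A libraries also enter NC-A against NC, with the opposite sign, so a rise there and a fall here are not independent. Among the 5 falls were those of GARS1 (-0.19 ± 0.038), NARS1 (-0.18 ± 0.040), WARS1 (-0.18 ± 0.046) and IARS1 (-0.15 ± 0.040). All 5 are changes of under 1.2-fold, and the count depends on single libraries. It was 3 without NC-A 1 or NC-A 2, 1 without NC-A 3 and 2 without DHN-A 2, and it reached 7 without DHN 3. Only the GARS1 call held in every alternative. NARS1 was lost without NC-A 3 or DHN-A 2, WARS1 without any of the 3 NC-A libraries, DHN-A 2 or DHN-A 3, and IARS1 without NC-A 1, NC-A 3, DHN-A 1 or DHN-A 2 (edgeR adjusted p = 0.0515 to 0.286). NARS2 was at -0.11 ± 0.11 (edgeR adjusted p = 0.744).

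The difference between the 2 responses to 1,2-DHN was tested as the interaction, the log2 change of DHN-A over NC-A less that of DHN over NC. It was called negative for 9 of 21 cytosolic enzymes and called positive for 3. For mitochondrial enzymes it was called positive for 2 of 17 and called negative for 1. Over all tested genes 13.2% were called positive and 12.5% called negative. The cytosolic share called positive and the mitochondrial shares lay near or below these. Counted by sign alone, 14 cytosolic values were negative and 7 positive, and 5 mitochondrial values were negative and 12 positive. The largest was that of GARS1 at -0.87 ± 0.055 (edgeR adjusted p = 2.72e-17): 1,2-DHN moved this gene by 0.68 without asparagine and by -0.19 with it. YARS1 followed at -0.67 ± 0.056 (0.62 without and -0.059 with asparagine), CARS1 at -0.42 ± 0.063, TARS1 at -0.37 ± 0.053 and NARS1 at -0.35 ± 0.058. MARS1, IARS1, SARS1 and AARS1 were at -0.30, -0.29, -0.23 and -0.21. These 9 are the cytosolic enzymes that rose both in NC-A against NC and in DHN against NC. The interaction subtracts both of those changes, so the negative signs are not independent of the rises.

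The opposite sign belonged to enzymes that 1,2-DHN lowered in cells without asparagine. The interaction subtracts this same change, so its sign follows by arithmetic where 1,2-DHN changed a gene little with asparagine present. VARS1 had an interaction of 0.35 ± 0.053, with changes of -0.34 without and 0.0049 with asparagine. QARS1 was at 0.33 ± 0.059, IARS2 at 0.34 ± 0.061 and TARS2 at 0.36 ± 0.093. WARS1 was at 0.18 ± 0.067 and lost its call without NC 2, NC 3, NC-A 2, NC-A 3, DHN 1, DHN 3, DHN-A 1 or DHN-A 2 (edgeR adjusted p = 0.053 to 0.132). HARS2 was at -0.27 ± 0.087, and its call was lost without DHN 3 or DHN-A 1 (0.105 and 0.0824), which leaves 0 called negative among the mitochondrial enzymes, although its value stayed below 0.

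**Figure D5:**
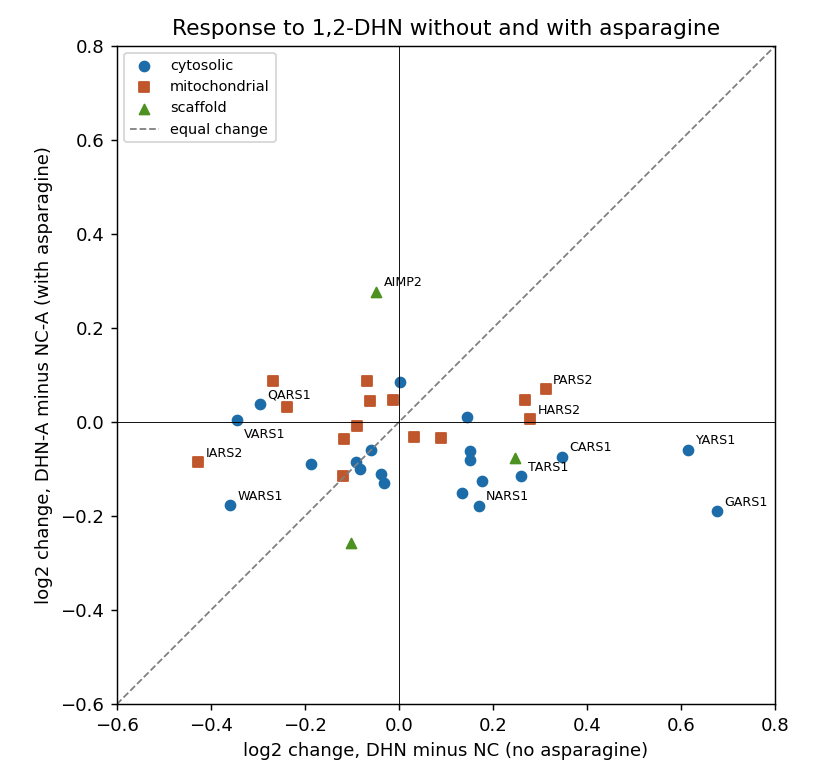
Log2 change by 1,2-DHN without asparagine (horizontal) and with it (vertical) for the genes described, on equal scales, with a dashed line where both are equal; the 2 axes share no library, and VARS2 and SARS2 are left out for their few reads. GARS1 lies at 0.68 across and -0.19 up, YARS1 at 0.62 and -0.059, and most points lie near 0 on the vertical axis.

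Within the cytosolic class, enzymes inside and outside the multi-synthetase complex were both among the calls. In NC-A against NC 4 of the 8 enzymes of the complex rose (MARS1, IARS1, EPRS1 and LARS1) and 1 fell (QARS1), with a median log2 change of 0.18. Of the 13 enzymes outside it 8 rose and 0 fell, with a median of 0.32. Over all tested genes 9.32% were called higher and 10.9% lower in this comparison. In DHN against NC 2 of 8 in the complex rose and 2 fell, and outside it 8 of 13 rose and 3 fell. Against the 19.7% and 19% of all tested genes, only the 8 rises outside the complex were far from the background share. KARS1 and RARS1, both of the complex, rose in none of the 5 comparisons. By catalytic fold, EPRS1, the glutamyl-prolyl enzyme, was counted as class I only. In NC-A against NC 7 of the 10 cytosolic class I enzymes and 5 of the 11 class II enzymes rose. In DHN-A against DHN the counts were 8 of 10 and 4 of 11, where 20.9% of all tested genes were called higher. The difference between the folds was not tested. FARSA, KARS1, RARS1 and TARS3 were called in no comparison.

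Of the 3 scaffolds, 1 rose in DHN against NC, and 1 rose and 1 fell in DHN-A against DHN, where 19.7% of all tested genes rose in the first and 20.9% rose and 20.8% fell in the second. AIMP1, which binds the arginyl and glutaminyl enzymes in the complex, was at 65.9, 60.9 and 60.5 CPM in the NC libraries, 65.4, 67.2 and 73.3 in those of NC-A, 77.4, 76.9 and 68.2 under DHN and 66.7, 67.4 and 61.6 under DHN-A. It rose in DHN against NC (0.25 ± 0.056) and fell in DHN-A against DHN (-0.18 ± 0.054), where every DHN library was above every NC and every DHN-A library. In NC-A against NC it was at 0.14 ± 0.057 and was not called (edgeR adjusted p = 0.0699), although it was without NC 1 (0.0455) or NC-A 1 (0.0428). AIMP2, the core scaffold, was at 19.0, 19.5 and 20.7 CPM in the NC libraries, 21.0, 16.6 and 19.1 in those of NC-A, 18.5, 19.2 and 19.5 under DHN and 21.4, 22.8 and 24.7 under DHN-A. Its highest libraries were those of DHN-A, and it rose in DHN-A against DHN (0.26 ± 0.082, edgeR adjusted p = 0.00867, or 0.0772 without DHN-A 3). EEF1E1 was at 12.8, 14.6 and 12.3 CPM in the NC libraries, 14.3, 14.2 and 12.9 in those of NC-A, 14.0, 11.9 and 11.5 under DHN and 12.8, 10.1 and 11.7 under DHN-A, and was called in no comparison.

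Of 15 other genes of tRNA handling, 3 rose and 1 fell in NC-A against NC, 3 rose and 3 fell in DHN against NC, and 4 rose and 3 fell in DHN-A against DHN. The last 4 counts are near the shares of all tested genes (19.7% and 19%, then 20.9% and 20.8%), which were 9.32% and 10.9% in NC-A against NC. XPOT, which exports tRNAs from the nucleus, was at 157, 158 and 151 CPM in the NC libraries, 216, 203 and 209.8 in those of NC-A, 187, 185 and 175 under DHN and 191, 189 and 198 under DHN-A. Like NARS1 it was highest in NC-A, with rises of 0.43 ± 0.041 in NC-A against NC and 0.23 ± 0.041 in DHN against NC. TRNT1, which adds the CCA end of tRNAs, and EEF1A1, which delivers charged tRNAs to the ribosome, rose in NC-A against NC by 0.27 and 0.22, while EEF1A2 fell (-0.48 ± 0.096). The mitochondrial counterpart of EEF1A1, TUFM, was at 195, 193 and 202 CPM in NC and 207, 201 and 193 in NC-A, and was not called (0.025 ± 0.040). GATB, a subunit of the enzyme that makes mitochondrial glutaminyl-tRNA, fell in DHN against NC (-0.37 ± 0.094) and rose in DHN-A against DHN (0.41 ± 0.092).

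Among 13 genes of the integrated stress response, 6 rose and 2 fell in NC-A against NC, and 9 rose and 4 fell in DHN against NC. All tested genes gave 9.32% and 10.9% in the first and 19.7% and 19% in the second. ATF4 itself was at 248, 236 and 251 CPM in the NC libraries, 400.3, 407 and 398 in those of NC-A, 389, 377 and 395 under DHN and 375, 370.4 and 362 under DHN-A. Every library of the 3 treated groups was above every NC library. The interaction of ATF4 was -0.78 ± 0.052. Interactions were called with this sign for 9 cytosolic and 1 mitochondrial enzyme, and with the opposite sign for 3 cytosolic and 2 mitochondrial enzymes. Over all tested genes 12.5% were called with this sign and 13.2% with the opposite sign. Apart from the 9 cytosolic enzymes, the counts were near or below those shares. In DHN-A against DHN, where 12 cytosolic enzymes rose, ATF4 was not called (-0.068 ± 0.036, edgeR adjusted p = 0.128). A link between ATF4 and the synthetases was not tested. ASNS, asparagine synthetase, was at 2.67, 1.59 and 1.99 CPM in the NC libraries, 4.95, 5.52 and 5.17 in those of NC-A, 4.67, 4.48 and 4.28 under DHN and 3.95, 4.85 and 4.05 under DHN-A. Another gene on the same strand covers 44.6% of its exon bases, so this level is uncertain. In DHN-A against DHN 3 of the 13 rose and 6 fell, against 20.9% and 20.8% of all tested genes, so the rises were near the background. PPP1R15A, the phosphatase subunit that reverses eIF2 phosphorylation, and DDIT3, a transcription factor of the response, had the largest falls (-0.995 ± 0.037 and -0.93 ± 0.091). GCN1, which activates GCN2, fell in DHN against NC (-0.26 ± 0.036) and rose in DHN-A against DHN (0.29 ± 0.036).

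The library kit keeps strand, per the labels, but no source states the strand setting used in counting, so antisense neighbours could add reads to some members. Opposite-strand genes cover 28.9% of the exon bases of AIMP2, 12.4% of MARS1, 11.7% of HARS2, 11.6% of AIMP1 and 10.6% of WARS1. Those over MARS1 include DDIT3, which rose by 1.04 in DHN against NC, and its part in the MARS1 counts was not tested. The gene over HARS2 is HARS1, while HARS2 and WDR55 cover 8.38% of HARS1. On the same strand a read-through gene covers 18.7% of EEF1E1. GARS1 and YARS1 have 2.38% and 4.82% on the opposite strand, and NARS1, IARS2, VARS1, AARS1, SARS1, TARS1 and IARS1 overlap no other gene.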

How the data were processed

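RNA of 12 libraries was analysed. The authors deposited whole-number read counts by symbol, beside a gene length. Per the submitters' processing notes, hg38 and Bowtie were used. The counter, its strand setting and the annotation: not given in the sources used here. No column was left out.

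Genes passing filterByExpr (minimum count 10, by group) were tested: 17889 of 60641. All 12 libraries entered 1 quasi-likelihood fit of 4 group means (edgeR 4.0.16, R 4.3.3, robust, TMM scaling), with Benjamini-Hochberg adjustment over all tested genes and a threshold of 0.05. Standard errors were derived from each change and its test statistic and are approximate. CPM were computed here from counts and scaled library sizes. No pair of replicates looked like a repeat deposit (mean chi-square per gene 1.77 to 4.45). The procedure was tested on simulated data. Members and lists were chosen with earlier results of these data known. Any member could be named. Values in every library are given for NARS1, NARS2, the scaffolds and, in the first 3 comparisons, the 3 cytosolic and 2 mitochondrial calls of largest change in each direction. Some members are not reported here by name, though counts, medians and sums include them. Of the tRNA handling and stress response lists, ATF4, ASNS, XPOT and TUFM and calls among the 3 largest in a direction could be named. Coordinates and promoters are from RefSeq (GRCh38.p14), overlaps from GENCODE release 29, matched for 41 of 41 members. Alternatives were RLE scaling, DESeq2 1.42.0, limma-voom (3.58.1), no filter, a replicate block, fits restricted to the compared groups, and leaving out every library once.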

Additional observations from a re-analysis of the deposited data

Results flagged for a closer look

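The response to 1,2-DHN differed between cells without and with asparagine, by the interaction test over all genes, for 17 of the 41 genes (12 cytosolic enzymes, 3 mitochondrial enzymes and 2 scaffolds). Over all tested genes 25.7% were called in either direction, a share above that of the mitochondrial enzymes (3 of 17). The interaction is the log2 change with asparagine minus that without it, and is not independent of the changes in the single comparisons above. It was called negative for GARS1 (-0.87), YARS1 (-0.67), CARS1 (-0.42), TARS1 (-0.37), NARS1 (-0.35), MARS1 (-0.30), IARS1 (-0.29), SARS1 (-0.23), AARS1 (-0.21), HARS2 (-0.27) and AIMP1 (-0.32). It was called positive for VARS1 (0.35), QARS1 (0.33), WARS1 (0.18), IARS2 (0.34), TARS2 (0.36) and AIMP2 (0.33). The AIMP2 call was lost under DESeq2 (adjusted p = 0.0587) and without NC 3, NC-A 2, NC-A 3, DHN-A 2, DHN-A 3 or any of the 3 DHN libraries (edgeR adjusted p = 0.0506 to 0.157). That of AARS1 was lost with no filter on low counts (0.0927). The dependence of the WARS1 and HARS2 calls on single libraries is given with their values above.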

How the results depend on the processing

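Of 76 called changes of single genes in the 5 comparisons, 59 kept their direction and their call in all alternatives that were run, 17 lost the call in at least 1, and 0 turned sign. All 13 calls of NC-A against NC were kept, and the cytosolic counts there were 12 rises and 1 fall without NC-A 1 as well. Same-numbered libraries deviated together in only 1 of 18 pairs (correlations of -0.176 to 0.229, where 0.1 was needed), and 5 of 12 libraries correlated best with their own number. The number was therefore not used to pair the samples in the main fit, although 3 libraries in a group cannot exclude a weak pairing. With the replicate block 1 mitochondrial enzyme rose in NC-A against NC instead of 0 (HARS2, edgeR adjusted p = 0.0498), the other counts stayed within 1.5 times, and the same 1 resulted from fitting only the groups compared. With no filter on low counts 3 cytosolic enzymes fell in NC-A against NC instead of 1, 1 mitochondrial enzyme rose in DHN against NC instead of 2, 0 fell in DHN-A against DHN instead of 1, 1 cytosolic enzyme fell in DHN-A against NC-A instead of 5, and 0 mitochondrial interactions were called negative instead of 1. DESeq2 gave 1 mitochondrial rise in DHN against NC, 0 mitochondrial falls in DHN-A against DHN and 8 cytosolic falls in DHN-A against NC-A. With 1 library left out, mitochondrial rises were 0 to 1 in NC-A against NC and 1 to 2 in DHN against NC. In DHN-A against DHN cytosolic falls were 1 to 2 and mitochondrial falls 0 to 1. Cytosolic falls in DHN-A against NC-A were 1 to 7, and mitochondrial interactions called negative 0 to 1. Among the uncalled values named in the text, signs turned for YARS1 in DHN-A against DHN under RLE scaling (-0.0012) and DESeq2 (-0.0014), and with 1 library left out (-0.016 to 0.032), for GARS1 there (-0.027 to 0.029) and VARS1 in DHN-A against NC-A (-0.0011 to 0.016) with 1 library left out, and for CARS2 in NC-A against NC with no filter (-0.0015). The cause of these differences was not tested. Depth limits VARS2 and SARS2 most, whose log2 changes had errors of 0.61 and 0.35 in NC-A against NC.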
